A study of Mus musculus with 41 samples.

Results

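Epidermal stem cells of mice on a high fat diet were compared with those of mice on the matching control diet at ZT0, the time of lights on. The comparison used the 7 ZT0 arrays of a series of 41, 3 from the high fat diet and 4 from the control diet, chosen by the diet and time point in their titles. Both groups were wild type female C57B6/J mice aged 15 weeks that had eaten their diet freely for 7 weeks from the age of 8 weeks, and no other treatment or allele is named. The remaining arrays cover both diets at ZT4, ZT8, ZT12, ZT16 and ZT20 and were used for the spread between arrays and for the course over the day. The composition of the diets and the way the cells were isolated are not stated. The plan was 4 mice per diet and time point, but single arrays are not tied to single mice, and the p-values speak only of how arrays vary. The mice killed on 1 day belonged to 1 time point, and it is not stated whether both diets shared that day, so a difference between diets and a difference between days cannot be told apart if they did not.

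The basal layer of the epidermis and the hair follicle hold stem cells that renew the skin, and their gene activity follows a clock that divides division, repair and defence over the day. ZT0 is the change from the dark phase, when mice feed and move, to the light phase, when they rest. Several of the genes below belong to the immediate early class. Such genes are switched on within minutes by growth factors, stress or inflammatory signals without new protein synthesis, and their transcripts decay quickly. Many encode transcription factors of the AP-1, EGR and NR4A families or feedback inhibitors such as A20, which shuts down NF-kB signalling.

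The labelled cell type was checked on its markers. Krt5, a keratin of basal keratinocytes, had log2 values of 12.59 to 12.70 on the high fat arrays and 12.66 to 12.81 on the control arrays, and Krt14, its partner, had 12.57 to 12.68 and 12.61 to 12.71. None of the 14 measured basal keratinocyte genes was called between the diets. Only 0.854% of all genes were, so the lack of a call in this list says little about a change. Suprabasal, immune and other cell type markers had values too, and without a background measure their presence cannot be judged from this table. The ZT0 arrays correlated with each other at 0.986 to 0.993, within the high fat diet at 0.992 to 0.993, within the control diet at 0.99 to 0.993 and between the diets at 0.986 to 0.99. The first principal component of these 7 arrays, with 32.7% of their variance, put the high fat arrays on one side and the control arrays on the other.

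Of 17097 genes tested, 146 differed between the diets at an adjusted p under 0.05, which is 0.854% of them. The high fat diet was higher for 77 genes (0.45%) and lower for 69 (0.404%), so rises made up 52.7% of the calls. That split depended on scaling, and rises were 59.6% of calls after subtracting array medians of all probe sets and 41.3% after subtracting medians of the genes tested. The median absolute log2 difference was 0.569 among the genes called and 0.0769 among all genes. At least 1.5-fold changes were seen for 42 of the risen and 29 of the fallen genes, and 15 rises but only 4 falls reached 2-fold. At an unadjusted p under 0.05 there were 2198 genes, 1254 higher and 944 lower. The values of the diets did not overlap for 142 of the 146 genes called, against 13.4% of all genes tested (7.76% apart with high fat higher and 5.69% with high fat lower). The genes were called from these same values, so that contrast is a description. The count was 20 without high fat replicate 3, 31 without high fat replicate 2 and 44 without control replicate 3.

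**Figure D1:**
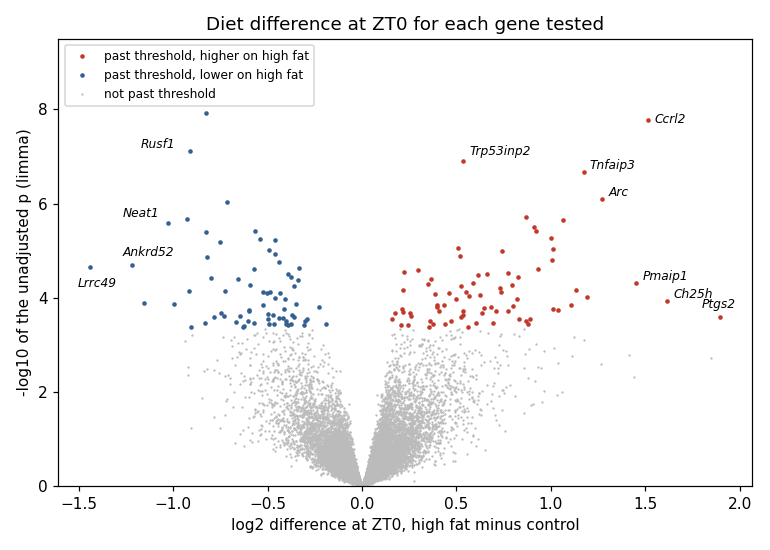
Each point is 1 gene, with its log2 difference at ZT0 (high fat minus control) across and the −log10 of its unadjusted p upwards; red and blue points are the 77 higher and 69 lower genes past the adjusted threshold, and grey points are the others. Among the coloured points, those farthest right are Ptgs2, Ch25h, Ccrl2 and Pmaip1, and those farthest left are Lrrc49 and Ankrd52.

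The genes that rose most on the high fat diet included enzymes and receptors of inflammatory signalling. Ptgs2 encodes cyclooxygenase 2, the inducible enzyme of prostaglandin synthesis. Its log2 values were 6.98, 7.39 and 7.23 on the high fat arrays, against 5.24, 6.09, 4.58 and 5.28 on the control arrays. The difference was 1.90 ± 0.461 (SE), or 3.72-fold, with an adjusted p of 0.0402, and all high fat values were above all control values. A further Ptgs2 probe set gave 0.52 with an adjusted p of 0.185, and the call held in 1 of the 7 fits that left out 1 array, the one without control replicate 2.

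Ch25h encodes cholesterol 25-hydroxylase, which makes an oxysterol that acts in antiviral and immune responses. It had 7.90, 7.80 and 7.64 on the high fat arrays and 5.92, 6.62, 5.99 and 6.14 on the control arrays, a 3.06-fold difference with an adjusted p of 0.0281. It too stayed past the threshold only without control replicate 2 when single arrays were left out. Ccrl2, an atypical receptor that binds chemerin, had 7.61, 7.76 and 7.89 on the high fat arrays and 6.25, 6.12, 6.40 and 6.19 on the control arrays. The 2.86-fold rise (log2 1.52 ± 0.202, adjusted p = 1.4e-04) exceeded the spread in both groups and passed in all 7 fits that left out 1 array.

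Tnfaip3, which encodes A20, had 10.42, 10.33 and 10.37 on the high fat arrays and 9.23, 9.34, 8.71 and 9.52 on the control arrays. Its difference of 1.17 ± 0.178 had an adjusted p of 7.4e-04 and passed in all 7 of those fits, and its other probe set also passed with 0.85. The high fat arrays lay close together and the control arrays were spread more widely below them. Pmaip1, which encodes the BH3-only cell death protein NOXA and is a p53 target, had 10.35, 10.53 and 10.49 against 8.85, 9.40, 8.77 and 9.0 (log2 difference 1.45 ± 0.309, adjusted p = 0.0178). The call for Pmaip1 was lost without control replicate 3, high fat replicate 2 or high fat replicate 3.

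Arc, an immediate early gene best known from neurons, had 9.44, 9.18 and 8.88 on the high fat arrays and 7.56, 7.93, 7.61 and 8.48 on the control arrays (log2 difference 1.27 ± 0.208, adjusted p = 0.0022). Fosl1, which encodes the AP-1 subunit FRA1, had 10.93, 10.73 and 10.76 against 9.32, 9.75, 9.23 and 10.15 (1.19 ± 0.268, adjusted p = 0.0247). In both genes control replicate 4 was the highest control array and still below every high fat array. The second Fosl1 probe set rose by 1.71 and passed as well. Arc passed in all 7 fits that left out 1 array, and Fosl1 in those without control replicate 2 or control replicate 4.

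The other large rises were between 2.00-fold and 2.19-fold. They were Slc25a25, a mitochondrial ATP and phosphate carrier, Ifrd1, a transcriptional coregulator of differentiation, Pard6b, a cell polarity protein, Mir22hg, the host gene of miR-22, Trib1, a pseudokinase that directs protein degradation, Nfil3, a clock output repressor, Cers3, the ceramide synthase of the epidermal barrier, and Tbc1d5, a Rab GTPase regulator. Their adjusted p ran from 0.00389 for Tbc1d5 to 0.0344 for Pard6b. Tbc1d5 rested on 1 probe set, and its other 3 gave -0.19, -0.11 and -0.08. Other probe sets of Slc25a25 (0.48), Trib1 (0.25) and Pard6b (1.08) were positive and did not pass. Over all 146 genes, 73 had further probe sets, which all pointed the same way for 50 genes and included another one past the threshold for 15.

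**Figure D2:**
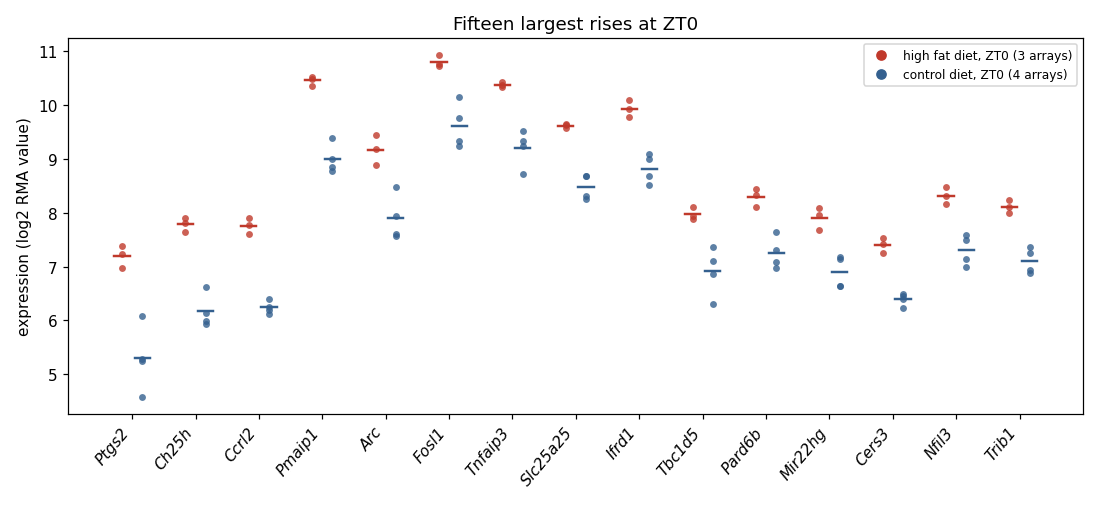
Points are the log2 RMA values of single ZT0 arrays for the 15 genes with the largest rises, high fat (red, 3 arrays) left of control (blue, 4 arrays), and bars are group means. In each of the 15 genes all red points lie above all blue points.

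Nr4a2 and Csrnp1 were added after their values were seen, because they passed in all 7 fits that left out 1 array. Nr4a2, an orphan nuclear receptor of the immediate early class, had 9.73, 9.82 and 9.62 on the high fat arrays and 8.89, 8.87, 8.42 and 9.05 on the control arrays (adjusted p = 0.00456). Csrnp1, a nuclear protein induced by stress and AXIN1, had 10.89, 10.86 and 10.82 against 10.04, 10.14, 9.82 and 10.45 (adjusted p = 0.0075). In all, 15 of the 146 genes passed in each of those fits, 9 higher and 6 lower.

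Among the falls, Lrrc49, a leucine-rich repeat protein of the tubulin polyglutamylase complex, had the largest difference. Its values were 6.30, 5.52 and 5.33 on the high fat arrays and 6.85, 7.10, 6.72 and 7.95 on the control arrays (log2 difference -1.44 ± 0.29, adjusted p = 0.0127). The groups did not overlap, although both were widely spread. Ankrd52, a regulatory subunit of protein phosphatase 6, was tighter, with 8.19, 8.23 and 8.22 against 9.35, 9.57, 9.37 and 9.45 (-1.22 ± 0.244, adjusted p = 0.0119). Both calls were lost without high fat replicate 2 or 3. The second Lrrc49 probe set was at -0.03.

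Neat1, the long noncoding RNA that builds nuclear paraspeckles, fell to 11.19, 10.86 and 10.72 on the high fat arrays, against 12.02, 11.91, 12.06 and 11.82 on the control arrays. The difference of -1.03 ± 0.18 had an adjusted p of 0.00406 and was lost only without high fat replicate 3. Rusf1, of the RUS family named for UV-B sensitivity in plants, had 7.35, 6.92 and 7.32 against 8.02, 8.07, 8.05 and 8.29. Its difference of -0.91 ± 0.131 had an adjusted p of 4.4e-04 and passed in all 7 fits that left out 1 array.

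The remaining large falls were 0.449 to 0.609 of the control level. They were Cwf19l2, a splicing-associated factor, Slx1b, a structure-specific nuclease, Parp11, a mono-ADP-ribosyltransferase, Ankle1, an endonuclease, Tmem258, a subunit of the oligosaccharyltransferase, Abcc5, an exporter of nucleotides, Odf2, a centriole appendage protein, Serpina3i, a serine protease inhibitor, Tchp, a keratin-binding centrosomal protein, Vcpkmt, a lysine methyltransferase of VCP, and Zfp672, a zinc finger protein. Their adjusted p ran from 0.00221 for Zfp672 to 0.0496 for Parp11. Other probe sets pointed the opposite way for Cwf19l2 (0.11) and for 2 of the other 6 of Abcc5 (0.25 and 0.06). Another Abcc5 probe set also passed, at -0.58. The others of Slx1b (-0.03 and -0.20) and Tmem258 (-0.02) were near 0. Those of Odf2 (-0.25) and Parp11 (-0.25) were negative and did not pass.

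**Figure D3:**
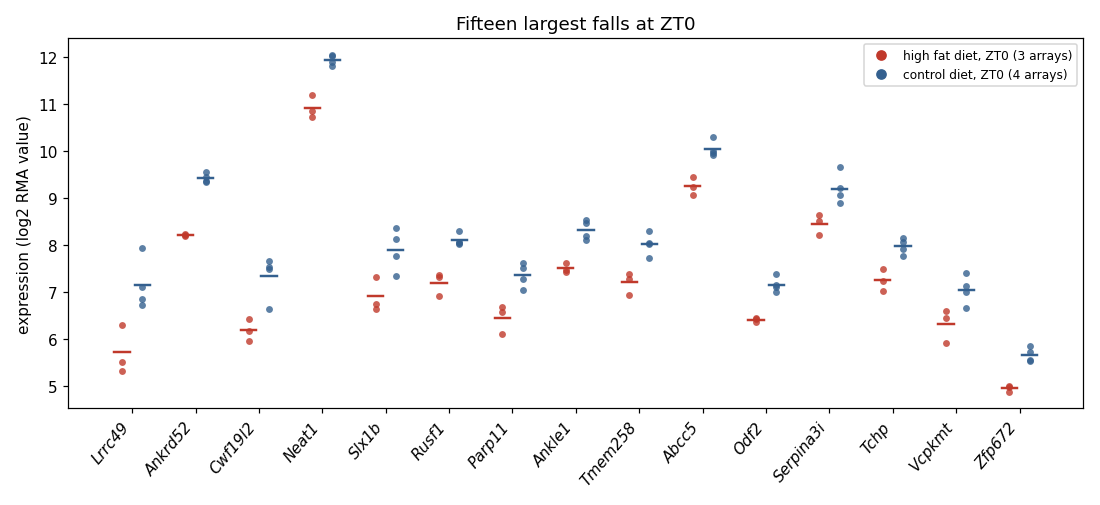
Points are the log2 RMA values of single ZT0 arrays for the 15 genes with the largest falls, high fat (red, 3 arrays) left of control (blue, 4 arrays), and bars are group means. In each of the 15 genes all red points lie below all blue points, by the least in Slx1b (7.32 at the top of high fat, 7.34 at the bottom of control) and Vcpkmt (6.60 and 6.66).

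The immediate early list had 3 of its 21 measured members higher (14.3%, against 0.854% of all genes) and none lower, with a median log2 difference of 0.287 against 0.0105 over all genes. The 3 were Fosl1, Fosl2 and Egr2. Fosl2, which encodes the AP-1 subunit FRA2, had 11.18, 11.22 and 11.22 on the high fat arrays and 10.57, 10.70, 10.64 and 10.76 on the control arrays (adjusted p = 0.0377). Its other probe set gave 0.32 and did not pass. Egr2, a zinc finger transcription factor, had 12.10, 11.81 and 11.81 against 11.23, 11.17, 11.38 and 11.65 (adjusted p = 0.0216). The differences of 19 members were positive, against 9244 of all 17097 genes. Among these members Nr4a1 (0.65, adjusted p = 0.111), Junb (0.47, 0.205), Ccn1 (0.45, 0.444) and Ier3 (0.43, 0.203) did not pass. When single arrays were left out, Fosl2 and Egr2 passed only without control replicate 4, and Fosl1 only without control replicate 2 or 4. The list then had 5 calls without control replicate 4, 1 without control replicate 2 and 0 without any 1 of the other 5 arrays. Fos was at -0.06 (0.607) and Dusp1, a phosphatase of MAP kinases, at 0.05 (0.812).

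The list of NF-kB pathway genes and targets had 1 of 26 members past the test (3.85%, against 0.854% of all genes), Tnfaip3, and a median of 0.119. The differences of 20 members were positive, against 9244 of all 17097 genes. Rel (0.58, adjusted p = 0.0891) and Rela (0.55, 0.0916), which encode NF-kB subunits, Icam1 (0.58, 0.523), an adhesion molecule, and Bcl3 (0.50, 0.183), a nuclear cofactor, did not pass. Among 17 prostaglandin genes only Ptgs2 passed (5.88%). Pla2g4a, the phospholipase that releases arachidonic acid, was at 0.50 (adjusted p = 0.0538), the receptor Ptger4 at 0.55 (0.409), the receptor Ptger3 at -0.34 (0.0967) and the synthase Ptges at 0.31 (0.315).

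Among 15 ligands and feedback genes of the EGF receptor, Hbegf passed (6.67%, against 0.854% of all genes). This ligand of keratinocyte migration had 10.25, 10.28 and 10.32 on the high fat arrays and 9.28, 9.13, 9.01 and 9.99 on the control arrays (0.93 ± 0.189, adjusted p = 0.0127), with control replicate 4 nearest to the high fat arrays. Phlda1 (1.27, adjusted p = 0.115), Epgn (1.06, 0.202), Dusp6 (0.73, 0.39) and Tgfa (0.52, 0.26) had sizeable positive differences that did not pass. Of 22 TGF-beta and BMP genes, the BMP target Id3 (0.82 ± 0.172, adjusted p = 0.0154) and the ligand Bmp2 (0.87 ± 0.215, 0.0439) rose, which is 9.09%. Id3 had 9.56, 9.86 and 9.74 against 8.80, 9.26, 8.62 and 8.91, and Bmp2 had 8.60, 8.91 and 8.84 against 7.86, 8.17, 7.79 and 7.86. When single arrays were left out, Bmp2 passed only without control replicate 2. The Hbegf and Id3 calls were lost without control replicate 3, high fat replicate 2 or high fat replicate 3. Skil, a SMAD corepressor, was at 1.04 (0.113) and the receptor Tgfbr1 at 0.63 (0.0909).

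Of 14 p53 targets, Pmaip1 and Mdm2 rose (14.3%, against 0.854% of all genes). Mdm2, the ubiquitin ligase that degrades p53, had 9.27, 8.97 and 9.28 on the high fat arrays and 8.61, 8.54, 8.52 and 8.94 on the control arrays (adjusted p = 0.0402), and its other probe set gave 0.12. When single arrays were left out, Mdm2 passed only without control replicate 4. Gadd45a (1.44, adjusted p = 0.147), a growth arrest gene, and Plk2 (0.93, 0.121), a kinase, did not pass, and Phlda3 was at -0.42 (0.321).

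**Figure D4:**
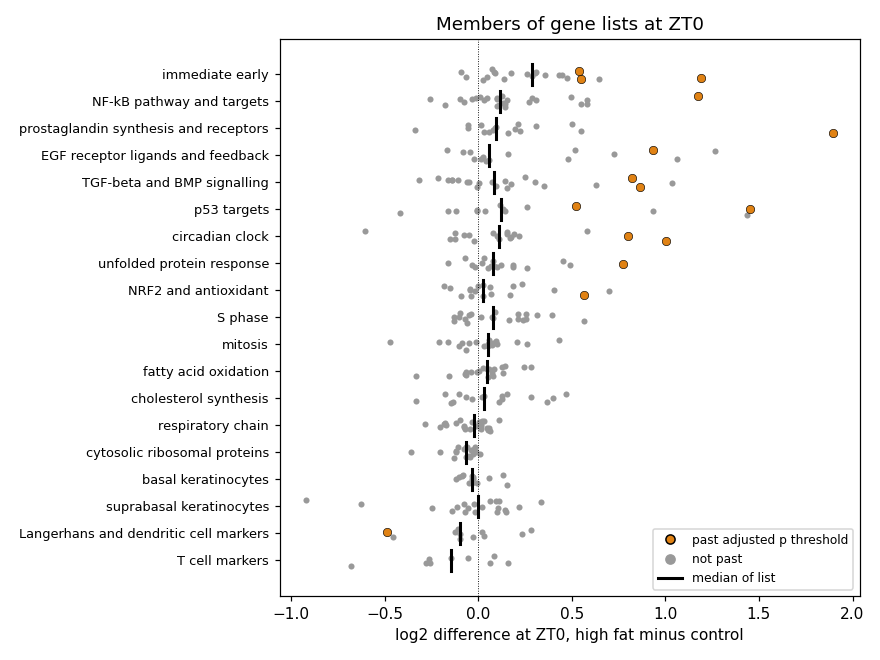
Each point is 1 measured member of a gene list, placed by its log2 difference at ZT0 (high fat minus control); orange points passed the adjusted threshold, grey points did not, and black bars are list medians. The immediate early median of 0.287 is the farthest from 0, and no member of the fatty acid oxidation, cholesterol synthesis, respiratory chain, S phase and mitosis lists is orange.

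The clock list had 2 of 19 measured members past the test (10.5%, against 0.854% of all genes), both higher, and a median of 0.113. Nfil3, the repressor of D-box genes, had 8.31, 8.16 and 8.47 on the high fat arrays and 7.50, 7.00, 7.14 and 7.59 on the control arrays (1.00 ± 0.197, adjusted p = 0.01). Bhlhe40, the E-box repressor DEC1, had 10.12, 9.92 and 9.95 against 9.22, 9.30, 8.96 and 9.30 (0.80 ± 0.187, adjusted p = 0.0322). The groups did not overlap in either gene, and high fat was higher. The Nfil3 call was lost only without high fat replicate 3, and Bhlhe40 passed only in the fits without control replicate 2 or control replicate 4 when single arrays were left out.

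The core loop gave no call. The repressor Per1 had 9.30, 9.78 and 9.69 on the high fat arrays and 8.92, 9.19, 8.69 and 9.23 on the control arrays, apart but not past the test (0.58 ± 0.222, adjusted p = 0.229). Arntl, which encodes the activator BMAL1, had 8.67, 8.44 and 8.59 against 8.69, 8.97, 9.65 and 9.37 (-0.60 ± 0.306, adjusted p = 0.407), and its other probe set gave 0.07. Its partners Clock (0.11) and Npas2 (-0.05) and the repressors Per2 (0.10), Per3 (-0.02), Cry1 (0.17) and Cry2 (0.19) were within 0.2 of 0. So were the output factors Dbp (-0.08), Tef (-0.15) and Hlf (-0.12), the nuclear receptors Nr1d2 (-0.12) and Rora (0.15), the kinases Csnk1d (0.08) and Csnk1e (0.18) and the repressor Bhlhe41 (0.16), while Ciart was at 0.22. The adjusted p of these 15 genes was at least 0.389. Other probe sets lay farther from 0, at 0.68 for Per2, 0.60 for Rora, 0.50 for Clock and -0.50 for Per3, and did not pass.

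Of 17 hair follicle bulge genes, Nfatc1 rose (5.88%, against 0.854% of all genes). This transcription factor, which keeps follicle stem cells quiescent, had 9.81, 9.65 and 9.94 on the high fat arrays and 9.16, 8.88, 9.03 and 9.56 on the control arrays (0.65 ± 0.151, adjusted p = 0.0327). When single arrays were left out, it passed only without control replicate 4. All 4 of its other probe sets were positive, from 0.56 to 0.97. The bulge surface marker Cd34 (-0.40, adjusted p = 0.407) and the receptor Lgr5 (-0.38, 0.558) did not pass. Timp3, an inhibitor of matrix proteases, was the only call among 21 matrix genes (4.76%), with 9.0, 9.01 and 9.12 against 8.17, 8.41, 8.37 and 8.05 (0.79 ± 0.17, adjusted p = 0.018). Its call was lost without control replicate 4, high fat replicate 2 or high fat replicate 3. The other Timp3 probe sets, at 0.36, 0.50 and 0.64, did not pass.

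At the 0.854% of all genes that were called, lists of this size hold few or no calls, so a low count says little about fat metabolism. None of 20 fatty acid oxidation genes, 17 PPAR targets and 17 cholesterol synthesis genes passed. Of 17 fatty acid synthesis genes only Dgat1 passed (5.88%). This enzyme of the last step of triglyceride synthesis had 7.46, 7.13 and 7.17 on the high fat arrays and 7.63, 7.49, 7.72 and 7.80 on the control arrays (-0.41 ± 0.0917, adjusted p = 0.0256). The groups lay apart by less than the spread within high fat, and the call was lost without control replicate 3 or 4 or high fat replicate 2 or 3. The other Dgat1 probe set gave -0.17 and did not pass. Outside these lists, 2 genes of lipid transport were chosen after their values were seen. Slc27a1, a fatty acid transporter, was lower on high fat (-0.37 ± 0.078, adjusted p = 0.0154) and lost its call only without high fat replicate 2. Scp2, which encodes a sterol carrier protein, was also lower (-0.31 ± 0.0771, adjusted p = 0.0464) and passed in none of the 7 fits that left out 1 array. None of 24 respiratory chain, 12 glycolysis, 21 S phase and 19 mitosis genes passed either. Among stress lists, Dnajb9, a chaperone of the unfolded protein response, rose by 0.78 ± 0.184 (adjusted p = 0.035, 1 of 18 members). Nfe2l2, which encodes the antioxidant regulator NRF2, rose by 0.57 ± 0.127 (0.023, 1 of 18). Each of these calls is 5.56% of its list. Nfe2l2 lost its call without control replicate 4, high fat replicate 2 or high fat replicate 3, and Dnajb9 passed only without control replicate 1 or 4. The other Nfe2l2 probe set was at -0.001 (adjusted p = 0.999). Atf4, the stress transcription factor, was at 0.49 with an adjusted p of 0.0621, the chaperone Hspa5 at 0.45 (0.163) and the NRF2 target Txnrd1 at 0.70 (0.166). The 18 cytosolic ribosomal protein genes had no call, a median of -0.0626 and 17 negative differences, against 7853 negative of all 17097 genes. Their mean was 11.35 to 11.55 on the high fat arrays and 11.54 to 11.57 on the control arrays, so the groups overlapped. Genes measured on the same arrays are not separate observations.

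Markers of immune cells in the epidermis were given beside these genes. Of 11 Langerhans and dendritic cell markers, H2-Aa passed (9.09%, against 0.854% of all genes). This chain of MHC class II fell to 8.07, 8.01 and 8.08 on the high fat arrays, against 8.45, 8.57, 8.68 and 8.47 on the control arrays (-0.49 ± 0.107, adjusted p = 0.0216). Its other probe sets gave 0.25 and -0.12, and the mean of them did not pass (adjusted p = 0.746). H2-Ab1, the partner chain, was at -0.45 (0.334), and Cd207, the defining langerin gene, at -0.12 (0.739). Of the 11 members, 7 had negative and 4 positive differences, among them the secreted factor Mfge8 at 0.28 (0.294) and the adhesion molecule Epcam at 0.24 (0.433). The H2-Aa call was lost without control replicate 3 or any 1 of the high fat arrays. The mean of the list was 7.19 to 7.37 on the high fat arrays and 7.31 to 7.43 on the control arrays. The 9 measured T cell markers had no call and a median of -0.145, and their mean was 6.36 to 6.50 against 6.40 to 6.68. Fewer cells of a type and less RNA per cell cannot be told apart in such samples, and the part of these cells in the differences above was not tested.

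The promoters of 3 of the risen genes and of H2-Aa are shown because they hold motifs that, as background, CREB, AP-1 or E-box factors such as DEC1 can bind. Each line gives the 250 bases before the start of the gene on its own strand, from RefSeq on GRCm38.p6, with the matched motif in capitals: the cAMP response element TGACGTCA, the AP-1 site TGANTCA or the E-box CACGTG.
Ch25h: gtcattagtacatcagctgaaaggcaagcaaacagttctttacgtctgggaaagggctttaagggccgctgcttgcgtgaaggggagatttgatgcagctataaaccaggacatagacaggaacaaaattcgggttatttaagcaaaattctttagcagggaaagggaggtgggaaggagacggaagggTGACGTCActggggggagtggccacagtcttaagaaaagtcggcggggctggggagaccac
Tnfaip3: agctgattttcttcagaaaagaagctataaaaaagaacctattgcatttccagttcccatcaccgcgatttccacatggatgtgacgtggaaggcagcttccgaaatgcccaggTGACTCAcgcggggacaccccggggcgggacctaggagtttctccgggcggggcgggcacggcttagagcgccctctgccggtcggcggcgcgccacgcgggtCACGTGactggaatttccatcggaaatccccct
Egr2: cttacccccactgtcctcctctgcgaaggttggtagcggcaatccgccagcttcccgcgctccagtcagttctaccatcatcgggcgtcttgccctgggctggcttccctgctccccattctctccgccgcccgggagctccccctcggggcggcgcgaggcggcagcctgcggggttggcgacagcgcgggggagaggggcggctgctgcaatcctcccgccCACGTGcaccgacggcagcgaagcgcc
H2-Aa: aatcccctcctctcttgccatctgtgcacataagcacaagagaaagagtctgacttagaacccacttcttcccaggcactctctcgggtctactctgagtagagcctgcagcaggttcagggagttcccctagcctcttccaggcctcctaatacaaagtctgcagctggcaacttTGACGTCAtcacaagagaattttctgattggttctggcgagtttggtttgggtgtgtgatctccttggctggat
Ch25h lies on the minus strand (chr19:34475149-34475398) and its element begins at position -61 from the start. Tnfaip3 is on the minus strand (chr10:19015411-19015660), with an AP-1 site at -136 and an E-box at -33. Egr2 is on the plus strand (chr10:67535249-67535498), with an E-box at -27, and H2-Aa is on the minus strand (chr17:34287824-34288073), with a cAMP response element at -74.

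Such matches were counted on both strands of windows from 250 bases before to 50 after the start, for the 62 risen and 55 fallen genes with a promoter in the table and for all 27025 promoters. The cAMP response element was in 5 risen (8.06%) and 3 fallen promoters (5.45%), against 1.88% of all promoters and 2.69% of the 13605 promoters of genes tested. The E-box was in 17.7% of the risen and 14.5% of the fallen, against 7.24% and 9.0%. The AP-1 site was in 4.84% and 9.09%, against 7.93% and 6.45%, and the D-box TTATGTAA in 1.61% and none, against 0.955% and 0.654%. The NF-kB pattern searched (GGGA, any base, TTTCC) was in none of the risen or fallen, against 0.385% and 0.412%. It is a narrow form of the site. Other forms were not searched, so these genes may hold NF-kB sites that were not counted. No test was made, and a match is a run of letters, not a bound site.

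Whether the difference at ZT0 differed from that at other times was tested with the ZT0 difference minus the mean of the differences at the other 5 time points. Of 17097 genes, 241 (1.41%) passed, 122 with a more positive and 119 with a more negative difference at ZT0. They included 104 of the 146 genes called at ZT0, all with the same sign in both. Since the ZT0 difference is part of both tests, that overlap is a description. The median absolute value of the mean difference at the other times was 0.0718 over the 146 genes. That mean keeps signs, so differences of opposite direction at the 5 times cancel. A small value thus does not show a small difference at each time. Among the rises of at least 2-fold, high fat was lower at ZT12 for all but Ch25h (0.0995) and Cers3 (0.48). The ZT12 difference was -1.16 for Ptgs2, -0.92 for Fosl1 and -0.84 for Pmaip1. Against the mean of ZT4, ZT16 and ZT20 alone, 111 genes passed the test of the ZT0 difference, and against the neighbours ZT20 and ZT4 158 did.

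Of the 10 largest ZT0 differences past both tests, Ptgs2 was 2.02 more positive at ZT0 than at other times, Ccrl2 1.70, Pmaip1 1.62, Ch25h 1.61, Fosl1 1.37, Tnfaip3 1.24, Slc25a25 1.19 and Arc 1.01. Lrrc49 was at -1.71 and Ankrd52 at -1.23. Their adjusted p ran from 2.0e-04 for Ccrl2 to 0.0421 for Ch25h. Against the neighbours ZT20 and ZT4 alone, Ptgs2 (adjusted p = 0.12), Ch25h (0.0843), Fosl1 (0.098) and Slc25a25 (0.0591) did not pass. The other 6 passed, from 4.0e-05 for Ccrl2 to 0.046 for Lrrc49. Of the 10, only Ccrl2 and Tnfaip3 passed the test against all other times in each of the 7 fits that left out 1 ZT0 array.

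Beside the other groups of the day, genes differed in which diet stood apart at ZT0. Ptgs2 averaged 7.20 ± 0.206 on high fat arrays at ZT0 (SD, n = 3) and 5.30 ± 0.617 on control arrays at ZT0 (n = 4). At ZT20 the means were 8.32 ± 0.612 on high fat and 8.07 ± 0.112 on control (n = 4 each), and at ZT4 they were 7.37 ± 0.98 (n = 4) and 7.36 ± 0.682 (n = 3). The ZT0 mean was thus lower than at both neighbouring times in each diet, and by more on control. On high fat it differed from the ZT4 mean by less than the SD at ZT4.

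Ccrl2 averaged 7.76 on high fat and 6.24 on control at ZT0, and control at ZT0 was the lowest of the 12 groups. Tnfaip3 averaged 10.37 on high fat and 9.20 on control, again the lowest group, against 11.54 and 11.37 at ZT20 and 10.80 and 10.83 at ZT4. Control at ZT0 was the lowest of the 12 group means in 41 of the 77 risen genes, and high fat at ZT0 the highest in 19. For the 69 fallen genes, control at ZT0 was the highest group in 33 and high fat at ZT0 the lowest in 25. The genes were chosen for their ZT0 difference, which by itself puts these groups towards the ends, so the counts are a description. Over all 9244 genes with a positive difference, control at ZT0 was the lowest group in 10.5% and high fat at ZT0 the highest in 14%. Over all 7853 with a negative one, control at ZT0 was the highest in 14.5% and high fat at ZT0 the lowest in 8.85%. Neat1 was among the 33, with 10.92 ± 0.242 on high fat and 11.95 ± 0.11 on control at ZT0. Rusf1 was among the 25, with 7.20 ± 0.244 on high fat and 8.11 ± 0.125 on control at ZT0 and means of 7.91 to 8.42 in the other 10 groups.

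The mean of the immediate early list was 11.09 ± 0.0709 on high fat and 10.80 ± 0.156 on control at ZT0. High fat arrays ran from 11.02 to 11.17 and control arrays from 10.68 to 11.02, with control replicate 4 at the lower end of the high fat range. The control mean shared the lowest place of the 12 groups with high fat at ZT12. At ZT20 the list stood at 11.23 on high fat and 11.17 on control, the highest pair. The NF-kB list had 7.371 ± 0.0241 on high fat and 7.187 ± 0.072 on control at ZT0.

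**Figure D5:**
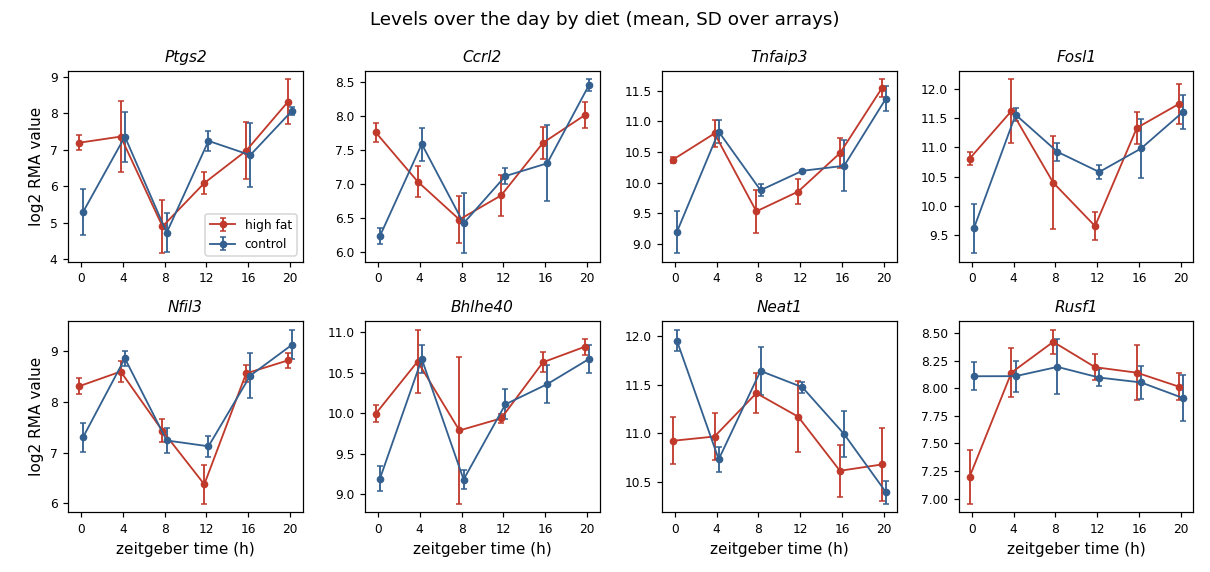
Group means of the log2 RMA value with the SD over arrays (2 to 4 per group) are drawn against zeitgeber time for 8 genes, high fat in red and control in blue. At 0 h the red points of Ptgs2, Ccrl2, Tnfaip3, Fosl1, Nfil3 and Bhlhe40 lie above the blue ones, which are below those at 4 h and 20 h, while Rusf1 differs from all its other groups in high fat at 0 h.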

How the data were processed

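RNA of epidermal stem cells was measured on Affymetrix arrays after amplification of 25 ng for 17 cycles, per the labels' protocols. The submitters' processing notes name RMA, which adjusts background, brings arrays to a shared distribution and combines the probes of a set. The sources used here give neither its version nor any batch adjustment. The deposited values run over 2.17 to 13.5, which puts them on a log2 scale. ZT0 array medians were 6.42 to 6.43. Precision is limited by the few arrays, and signal over background is unknown.

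The platform's gene names, which can be old, give 1 gene for 28898 of 45141 probe sets. The 551 with several genes and 15692 unnamed were left out, and the probe set with the highest mean stood for each of 17097 genes. No filter on low values was applied.

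limma 3.58.1 in R 4.3.3 (data.table, version 1.17.8) fitted a mean for each of 12 diet and time groups over all 41 arrays (29 residual and 2.63 prior degrees of freedom). P-values were adjusted by Benjamini-Hochberg across the 17097 genes and called under 0.05. In data simulated for ZT0 on 17097 genes, 98% of changes of 1 and 100% of changes of 1.5 (log2) were recovered, with 14 false calls. The simulated noise was normal and independent between genes and arrays. It left out shifts shared by many genes of an array, so these shares need not hold for the real arrays. Figures used matplotlib 3.10.9 in Python 3.11.15.

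The text names the 15 strongest rises and 15 strongest falls past the threshold (no predicted genes), the 10 largest ZT0 differences past both tests, all measured clock genes, and of each described list up to 6 members past and 4 not past the threshold. The members, the 43 gene lists and these rules were chosen with earlier results of these data known. A list is described by counts and its median, with no test of its own. Alternatives covered the arrays fitted, probe set choice, a dim filter, eBayes settings, weights, scaling, a residual component, a replicate block and leaving out each ZT0 array.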

Additional observations from a re-analysis of the deposited data

Results flagged for a closer look

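This flag was looked for only among the 47 named genes already called at ZT0, and the ZT0 difference is part of both tests. The count is therefore a description, and over all 17097 genes 241 (1.41%) passed. The diet difference at ZT0 differed from its mean at the other 5 time points for 37 of the genes named, by the limma test of that difference. It was more positive at ZT0, on the log2 scale, for Ptgs2 (2.02), Ccrl2 (1.7), Pmaip1 (1.62), Ch25h (1.61), Fosl1 (1.37), Tnfaip3 (1.24), Mir22hg (1.24), Ifrd1 (1.22), Nfil3 (1.22), Slc25a25 (1.19), Nr4a2 (1.17), Tbc1d5 (1.16), Trib1 (1.02), Arc (1.01), Hbegf (0.985), Nfatc1 (0.959), Cers3 (0.946), Dnajb9 (0.89), Timp3 (0.826), Csrnp1 (0.78), Fosl2 (0.735), Egr2 (0.705) and Mdm2 (0.687). It was more negative at ZT0 for Lrrc49 (-1.71), Ankrd52 (-1.23), Rusf1 (-1.02), Abcc5 (-0.961), Tmem258 (-0.953), Neat1 (-0.95), Zfp672 (-0.931), Odf2 (-0.815), Ankle1 (-0.807), Vcpkmt (-0.784), H2-Aa (-0.644), Scp2 (-0.549), Dgat1 (-0.393) and Slc27a1 (-0.356). Among the positive ones, Ccrl2, Tnfaip3, Nfil3, Nr4a2, Tbc1d5, Nfatc1, Csrnp1, Fosl2 and Egr2 passed in all 7 fits that left out 1 ZT0 array. Among the negative ones, Rusf1, Zfp672, Odf2, Ankle1, H2-Aa and Scp2 did. The others lost the call in at least 1 of those fits.

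Single control arrays lay far from the others of their group in 4 genes, out of 96 groups of 4 control values looked at, where chance marks about 1 in 20. Cwf19l2 was at 6.65 on control replicate 2, against 7.50 to 7.67 on the other control arrays. Junb was at 9.73 on control replicate 4, against 8.88 to 9.01, and Nfe2l2 was at 6.57 there, against 6.94 to 6.99. Dusp1 was at 12.7 on control replicate 4, against 12.4 to 12.5. Without that array the Junb difference passed the test, at 0.67 with an adjusted p of 0.0391. The causes were not tested.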

How the results depend on the processing

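The 146 calls at ZT0 numbered 438 with array weights, 323 with a residual component added as covariate and 239 with each named probe set tested on its own. The test on the 7 ZT0 arrays alone gave 117 calls, 51 of them shared with the 146. The other settings of arrays, probe sets, filter, prior and scaling gave between 135 and 198. Leaving out each ZT0 array in turn gave 20 to 117. The 241 genes that differed from the other times numbered 402 with array weights, 450 with the residual component, 111 against ZT4, ZT16 and ZT20, and 158 against the neighbours ZT20 and ZT4. Leaving out each ZT0 array gave 34 to 163, with 34 without high fat replicate 3, 100 without high fat replicate 2 or control replicate 3, 133 without control replicate 2, 134 without high fat replicate 1 and 140 without control replicate 1. The causes were not tested.

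Deviations of same-numbered arrays of the diets correlated at -0.239, 0.248 and -0.0248, and those of other pairs at -0.205 to 0.221. So few correlations cannot settle whether same-numbered arrays were paired. With the replicate block in all arrays, 138 genes passed at ZT0 and 211 against the other times. The replicate block within the 7 arrays alone gave 0 by limma, and 2144 at an unadjusted p under 0.05.

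None of the 47 named genes past the threshold turned its direction under any alternative, and none passed under all, because the block within 7 arrays gave no call. With the mean of probe sets, 39 of the 47 passed, and on the 7 arrays alone 25 did. Calls lost among the 47 were 36 without high fat replicate 3, 32 without high fat replicate 2, 25 without control replicate 3, 20 without high fat replicate 1, 15 without control replicate 1, 13 without control replicate 4 and 11 without control replicate 2. Of the 49 named genes not past the threshold, 37 passed in no alternative. Values near 0 turned positive for Nr1d2 (0.12) and Npas2 (0.0092) with the mean of probe sets. Per3 turned positive without control replicate 2 (0.03), without control replicate 4 (0.053) and in the block within 7 arrays (0.053), and ranged over -0.095 to 0.053 when single arrays were left out.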

Other observations

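The fallen genes were unevenly spread over the chromosomes. Chromosome 17 held 12 of the 69 fallen genes (17.4%) and 1 of the 77 risen, while it held 4.61% of the genes tested, and the median difference of its 789 genes was -0.00302. This was noticed after the values were seen, and no test was made. The fallen gene Zfp943 lies on chromosome 17 and also counts among the Zfp genes below, so these observations are not separate.

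Genes named Zfp with a number, most of which encode zinc finger proteins, were noticed after their values were seen, and no test was made of them as a group. Of 301 in the fit, 7 were lower (2.33%, against 0.404% of all genes) and 2 higher (0.664%, against 0.45%), with a median log2 difference of -0.0562, against 0.0105 over all genes. Among the lower, Zfp672 and Zfp763 passed in all 7 fits that left out 1 array, and the others in 2 at most. Of the higher, Zfp131 passed in 0 of those fits and Zfp740 in 1. Ctbp2, a transcriptional corepressor, Trp53inp2, a regulator of autophagy, and Ptp4a1, a phosphatase, were higher on the high fat diet by 0.51, 0.53 and 0.87 and passed in all 7 fits that left out 1 array.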
